A study of Populus trichocarpa with 9 samples.

Results

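The 9 genes described here encode the glycosyltransferases that build xylan, the main hemicellulose of hardwood, and they were chosen by identifier from the 41335 gene models of the count table. They are 4 genes of family GT43 (IRX9 and IRX14 type), 2 genes of the IRX10 type, 1 gene of family GT47C (FRA8 type) and 2 GAUT12 genes. The choice used family membership and no cut on a measured value, but earlier results of these data were known when it was made. RNA came from stem differentiating xylem (SDX), the layer of young wood cells that is laying down secondary walls, scraped from stems of the black cottonwood Populus trichocarpa, genotype Nisqually-1. The trees were 6 months old and greenhouse-grown. The unbent group came from vertical stems at day 0, and the bent groups were taken from the upper side of stems held at a right angle for 3 or 7 days, where tension wood (TW) forms. Each group had 3 libraries, and bending is the only treatment given. No vertical stems of day 3 or 7 were analysed here, so bending, elapsed time and day of harvest cannot be told apart.

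Xylan of wood is a chain of xylose units that is made in the Golgi and secreted into the wall, where it coats cellulose microfibrils. In Arabidopsis, IRX9, IRX14 and IRX10 proteins act together in lengthening this backbone, with IRX10 as the transferase that adds xylose. FRA8 and GAUT12 (also called IRX8) are needed in Arabidopsis for a short sugar sequence at the reducing end of the chain, which is thought to prime or end its synthesis. Mutants in these genes have collapsed vessels and little xylan, hence the name irregular xylem. Tension wood is a wood type of broad-leaved trees in which fibres add an inner layer that is rich in cellulose and poor in xylan and lignin.

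Of the members, only PtrIRX10-1 (Potri.001G068100) is given a gene name by the study. Its RT-qPCR primer pair is printed because this gene carries the clearest difference between groups, and it is the only member for which a sequence was at hand. All bases are in lower case because no part of either primer is singled out, and the pair is written as the study lists it.

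PtrIRX10-1 forward: tctcacacccatgggct

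PtrIRX10-1 reverse: aacgctggagtaacggg

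The number before the letter G in each identifier is the chromosome of the gene in this annotation. Coordinates, exons and the sequences of the other 8 members were not used here.

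Total counts were 20888144 to 29539805 per library, and the 9 genes together took 0.158 to 0.364% of them. Each member had at least 930 reads in every library, so counting error was small beside the spread between libraries. Levels are given as CPM, that is counts divided by library size, which was first corrected for differences in library composition by TMM factors. They are not divided by gene length, so they are compared between libraries and not between genes. As genes active in xylem, 5 secondary wall cellulose synthase genes and 5 lignin genes named by the study were looked at. None of these 10 genes was at 0 in any library, and their summed level was 11359 to 13907 CPM in unbent, 5676 to 12987 CPM in 3-day and 12232 to 20742 CPM in 7-day libraries. No marker of another cell type was examined, so these values cannot establish the identity or purity of the samples. In such bulk samples, fewer cells of a type and less RNA per cell cannot be told apart.

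Among the 9 genes, PtrIRX10-1 was the one whose level was higher in every 7-day library than in every unbent library, as was the case for 16.3% of all tested genes, and it was also above every 3-day library, as were 14.4% of all genes. The GT47C gene and the GAUT12 gene Potri.001G416800 were lower in every bent library than in every unbent one at both times, where 8.04% of all genes were so at 3 days and 14.7% at 7 days. The other 6 members had overlapping groups in all 3 comparisons. By edgeR's quasi-likelihood test with Benjamini-Hochberg adjustment over the 27795 genes tested, called at an adjusted p under 0.05, none of the 9 members passed in any comparison, where 0% of all genes passed at 3 days, 8.75% at 7 days and 0% between 7 and 3 days.

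**Figure D1:**
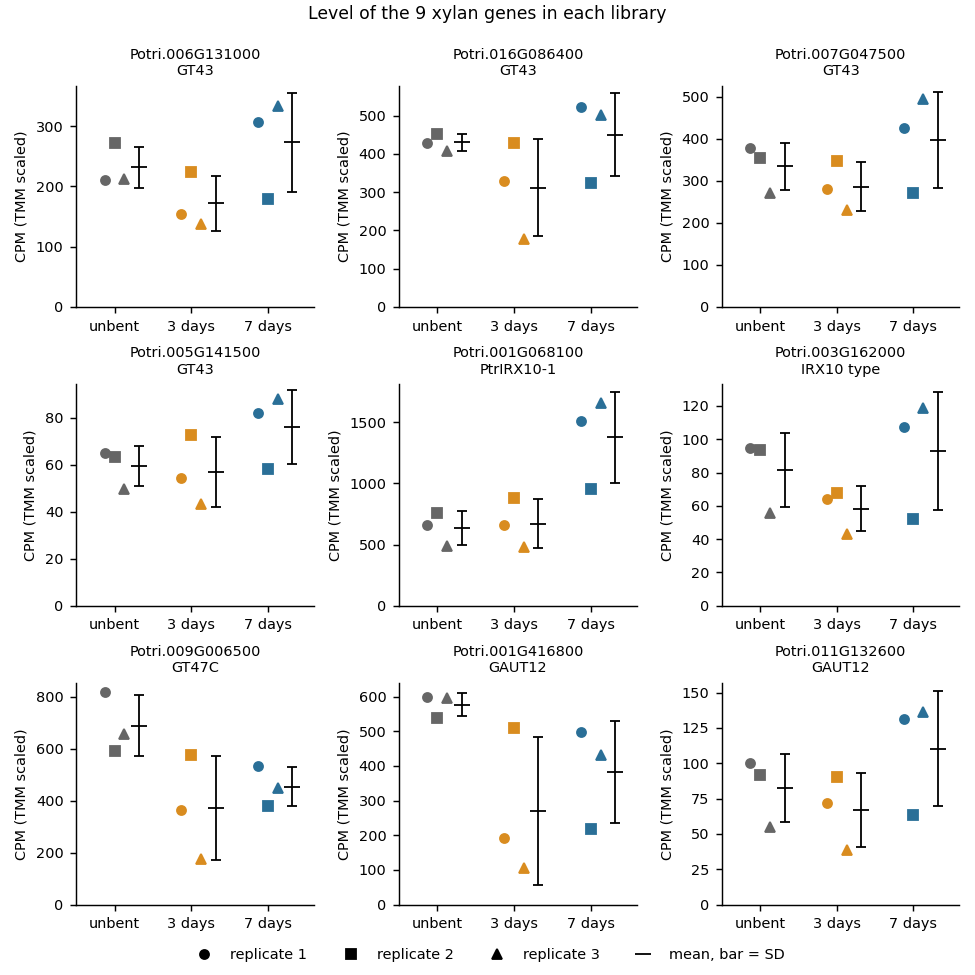
Level of each of the 9 xylan genes in CPM (TMM scaled, linear axis from 0, a separate scale for each gene) in the 3 libraries of each group; symbols give the replicate, and the line with its bar gives the mean ± SD. PtrIRX10-1 at 7 days lies at 958 to 1659 CPM, above all other libraries, while Potri.009G006500 and Potri.001G416800 lie lower in all bent than in all unbent libraries.

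PtrIRX10-1 belongs to the type that adds xylose to the growing backbone. Its level was 656, 759 and 490 CPM in unbent replicates 1 to 3, 657, 877 and 476 CPM after 3 days, and 1508, 958 and 1659 CPM after 7 days. The unbent and 3-day libraries overlapped widely, and the lowest 7-day library lay above the highest of both. Group means were 635 ± 136 CPM in unbent, 670 ± 201 CPM in 3-day and 1375 ± 369 CPM in 7-day SDX (SD, n = 3). The 7-day mean was 2.17-fold the unbent mean (log2 fold change 1.11, SE 0.32, 95% interval 0.40 to 1.83), and the edgeR quasi-likelihood adjusted p was 0.0617. It was 2.05-fold the 3-day mean (log2 fold change 1.04, SE 0.32, 95% interval 0.32 to 1.75, adjusted p = 0.163 by the same test). At 3 days against unbent the log2 fold change was 0.08 (SE 0.31, adjusted p = 0.947).

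The call for PtrIRX10-1 at 7 days depended on the test and on single libraries. DESeq2 gave an adjusted p of 0.00259 and edgeR's exact test 0.00327, and the quasi-likelihood test gave 0.0484 without 3-day replicate 3 and 0.0381 without 7-day replicate 2. Over all alternatives the adjusted p lay between 0.00259 and 0.223, and the log2 fold change was positive in each of them.

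The second gene of the IRX10 type, Potri.003G162000, stood at 94.8, 93.4 and 55.6 CPM in unbent, 64.2, 67.7 and 43.1 CPM in 3-day and 108, 52.3 and 119 CPM in 7-day libraries. Its 3 groups overlapped, since 7-day replicate 2 was lower than any unbent library and the other two 7-day libraries were higher than all of them. The log2 fold change was -0.48 at 3 days (SE 0.33, edgeR adjusted p = 0.617) and 0.19 at 7 days (SE 0.33, adjusted p = 0.746), and the 95% interval at 7 days ran from -0.55 to 0.94.

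The 4 GT43 genes are of the types that work beside IRX10 in lengthening the backbone. Potri.006G131000 had 211, 271 and 212 CPM in unbent, 153, 224 and 138 CPM in 3-day and 307, 179 and 333 CPM in 7-day libraries. Its 7-day replicate 2 lay below every unbent library while 7-day replicates 1 and 3 lay above. Between 7 and 3 days its log2 fold change was 0.67 (SE 0.28, 95% interval 0.05 to 1.29, unadjusted p = 0.0377 and adjusted p = 0.224 by edgeR's quasi-likelihood test).

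Potri.016G086400 had 428, 453 and 409 CPM in unbent libraries, the tightest unbent group among the 9 genes with a coefficient of variation of 5.15%. It had 330, 428 and 177 CPM after 3 days and 523, 325 and 503 CPM after 7 days. The 3-day libraries lay within or below the unbent range and the 7-day libraries on both sides of it, and the 95% interval of the log2 fold change at 7 days was -0.64 to 0.78.

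Potri.007G047500 had 378, 353 and 272 CPM in unbent, 281, 347 and 229 CPM in 3-day and 426, 270 and 494 CPM in 7-day libraries. Potri.005G141500 had 65.1, 63.5 and 49.9 CPM in unbent, 54.4, 72.9 and 43.5 CPM in 3-day and 82.1, 58.2 and 87.8 CPM in 7-day libraries. In both genes the 7-day replicates 1 and 3 were the highest of the 9 libraries, and 7-day replicate 2 fell within the unbent range or just below it. Over the 4 GT43 genes, log2 fold changes were -0.46 to -0.06 at 3 days and 0.07 to 0.35 at 7 days against unbent, with adjusted p of 0.355 or more by edgeR's quasi-likelihood test.

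Potri.009G006500 is the GT47C gene, of the FRA8 type that acts on the reducing-end sequence. Its level was 820, 590 and 657 CPM in unbent, 364, 574 and 176 CPM in 3-day and 534, 381 and 448 CPM in 7-day libraries. Every bent library was lower than every unbent one, with 3-day replicate 2 only slightly under unbent replicate 2. The unbent mean of 689 ± 118 CPM was 1.86-fold the 3-day mean of 371 ± 199 CPM and 1.52-fold the 7-day mean of 454 ± 76.6 CPM (SD, n = 3). The log2 fold change was -0.89 at 3 days (SE 0.38, 95% interval -1.75 to -0.04, unadjusted p = 0.0421 and adjusted p = 0.409 by edgeR) and -0.60 at 7 days (SE 0.38, 95% interval -1.45 to 0.25, adjusted p = 0.344). Leaving out 3-day replicate 2 moved the 3-day value to -1.35 and leaving out 3-day replicate 3 moved it to -0.53.

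Potri.001G416800, a GAUT12 gene, had 598, 538 and 595 CPM in unbent, 191, 510 and 106 CPM in 3-day and 497, 217 and 432 CPM in 7-day libraries. The unbent libraries were close together, all 6 bent libraries were lower, and the 3-day libraries differed from each other widely (coefficient of variation 79.4%, against 5.83% in unbent). The unbent mean of 577 ± 33.6 CPM was 2.15-fold the 3-day mean of 269 ± 213 CPM and 1.51-fold the 7-day mean of 382 ± 147 CPM (SD, n = 3). The log2 fold change was -1.10 at 3 days (SE 0.52, 95% interval -2.28 to 0.08, edgeR adjusted p = 0.460) and -0.59 at 7 days (SE 0.52, 95% interval -1.76 to 0.58, adjusted p = 0.503). It went to -1.96 at 3 days without 3-day replicate 2 and to -0.69 without 3-day replicate 3.

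The other GAUT12 gene, Potri.011G132600, had 100.4, 91.9 and 55.1 CPM in unbent, 71.7, 90.0 and 38.7 CPM in 3-day and 131, 63.4 and 136 CPM in 7-day libraries. Unlike in Potri.001G416800, the bent libraries lay on both sides of the unbent ones. Its log2 fold change was -0.30 at 3 days (SE 0.38, edgeR adjusted p = 0.804) and 0.42 at 7 days (SE 0.38, adjusted p = 0.519).

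**Figure D2:**
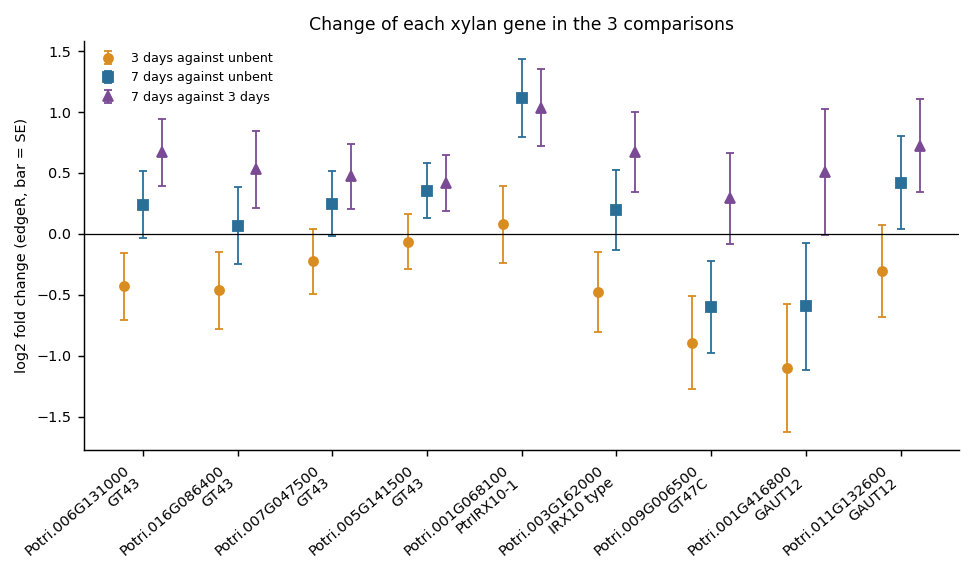
Log2 fold change of each xylan gene from edgeR's fit to all 9 libraries (vertical axis, bars are ± SE) for 3 days against unbent, 7 days against unbent and 7 days against 3 days. PtrIRX10-1 has the highest value at 7 days (1.11), Potri.009G006500 and Potri.001G416800 are the only members below 0 at 7 days (-0.60 and -0.59), and none of the 27 values passed the adjusted threshold.

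At 3 days against unbent, 0 of the 9 members were called by edgeR's quasi-likelihood test, where 0% of all tested genes were, and DESeq2 and edgeR's exact test called 0 members too, where they called 2.94% and 1.67% of all genes. An unadjusted p under 0.05 was reached by 1 member, the GT47C gene, and by 11.7% of all tested genes. Members with all 3-day libraries below all unbent ones numbered 2, against 8.04% of all genes, and 8 of the 9 log2 fold changes were negative, against 50.6% of all genes. The median over the members was -0.43, and that over all genes was close to 0.

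At 7 days against unbent, 0 members were called by the quasi-likelihood test, where 8.75% of all genes were, and 1 member, PtrIRX10-1, had an unadjusted p under 0.05, as did 26.1% of all genes. DESeq2 and edgeR's exact test each called 1 member, PtrIRX10-1 as higher, against 9.24% and 7.77% of all genes called higher. All 7-day libraries were above all unbent ones in 1 member (16.3% of all genes) and below them in 2 (14.7% of all genes), and 7 of the 9 log2 fold changes were positive, against 45.2% of all genes. The median was 0.24 over the members and -0.06 over all genes. When libraries were scaled by total counts alone, the median of all genes at 7 days moved to -0.33, and 4 members that lay above 0 came to lie below it (-0.22 to -0.04), namely Potri.006G131000, Potri.016G086400, Potri.007G047500 and Potri.003G162000. All 4 still lay above the median of all genes, and the scaling changed neither the direction of PtrIRX10-1 (0.83) nor that of Potri.009G006500 (-0.88) and Potri.001G416800 (-0.90). By that scaling 1101 genes were called higher and 2119 lower, in place of 1687 and 745.

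At 7 against 3 days, the quasi-likelihood test called 0 members and 0% of all genes. An unadjusted p under 0.05 was reached by 2 members, PtrIRX10-1 and Potri.006G131000, and by 20.2% of all tested genes. DESeq2 called 1 member, PtrIRX10-1, with an adjusted p of 0.0183, where it called 4.52% of all genes as higher, and edgeR's exact test called 0 members and 3.22% of all genes, with an adjusted p of 0.0527 for PtrIRX10-1. All 9 log2 fold changes were positive, with a median of 0.53, against 47.8% positive and a median of -0.02 over all genes. The 3 comparisons share libraries in pairs, so their values for a gene are not independent of each other.

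Single libraries stood high or low for all members at once. Of the 3-day libraries, replicate 2 was the highest and replicate 3 the lowest for 9 of 9 members, and of the 7-day libraries replicate 2 was the lowest for 9 of 9. The same libraries held the same places for 5 of 5 cellulose synthase genes and 5 of 5 lignin genes. The summed level of the 9 members was 3352, 3214 and 2795 CPM in unbent, 2167, 3192 and 1428 CPM in 3-day and 4115, 2504 and 4213 CPM in 7-day libraries. These sums overlapped in all comparisons, with two-sided exact permutation p of 0.2 at 3 days, 0.4 at 7 days and 0.2 between 7 and 3 days, where 3 against 3 libraries cannot give a p under 0.1. The part of the level of xylem genes as a whole in the members' differences was not tested, but ratios of reads within a library, given next, do not depend on the scaling between libraries.

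PtrIRX10-1 took a share of the reads of the 9 genes that was higher in each later group. It was 19.6, 23.6 and 17.5% in unbent, 30.3, 27.5 and 33.4% in 3-day and 36.6, 38.2 and 39.4% in 7-day libraries. No 2 groups overlapped, and means were 20.2 ± 3.10%, 30.4 ± 2.94% and 38.1 ± 1.37% (SD, n = 3). At 3 days the mean level of PtrIRX10-1 was 670 CPM against 635 CPM in unbent. The summed level of the 9 genes averaged 2262 CPM at 3 days against 3120 CPM in unbent, with overlap. The higher share at 3 days therefore does not show a higher level of this gene. The share of Potri.009G006500 was lower in bent stems, at 24.5, 18.4 and 23.5% in unbent, 16.8, 17.99 and 12.3% in 3-day and 12.97, 15.2 and 10.6% in 7-day libraries, with both bent groups below the unbent one and overlapping each other. That of Potri.001G416800 was 17.8, 16.7 and 21.3% in unbent, 8.80, 16.0 and 7.40% in 3-day and 12.1, 8.67 and 10.3% in 7-day libraries, again with both bent groups below the unbent one.

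The 6 backbone genes (GT43 and IRX10 type) together took 56.7 ± 4.71% of these reads in unbent, 70.6 ± 7.21% in 3-day and 73.7 ± 2.06% in 7-day libraries, and the primer genes (GT47C and GAUT12) took the rest. The highest unbent library stood at 62.0% and the lowest bent one at 63.2%. In unbent, 3-day and 7-day libraries the mean share of Potri.016G086400 was 13.8, 13.7 and 12.5%, that of Potri.006G131000 was 7.45, 7.92 and 7.51%, and that of Potri.007G047500 was 10.7, 13.3 and 10.95%. That of Potri.003G162000 was 2.57, 2.70 and 2.51%. For Potri.005G141500 it was 1.90, 2.61 and 2.13%, with both bent groups above the unbent one. At 7 days against unbent, the mean share of PtrIRX10-1 differed by 17.85 points, that of Potri.009G006500 by -9.17 and that of Potri.001G416800 by -8.28. The backbone share, a sum that includes PtrIRX10-1, differed by 17.08 points at 7 days, less than PtrIRX10-1 alone. The remaining backbone genes as a group therefore added nothing to that difference. At 3 days against unbent the backbone share differed by 13.97 points and that of PtrIRX10-1 by 10.14. There the remaining backbone genes as a group did add to the difference. These shares were computed after the levels had been seen, so they are a description with no test. They are shares of reads, in which a longer transcript counts for more. Because they add up to 100, a rise of one gene lowers the others and a fall of one raises them.

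**Figure D3:**
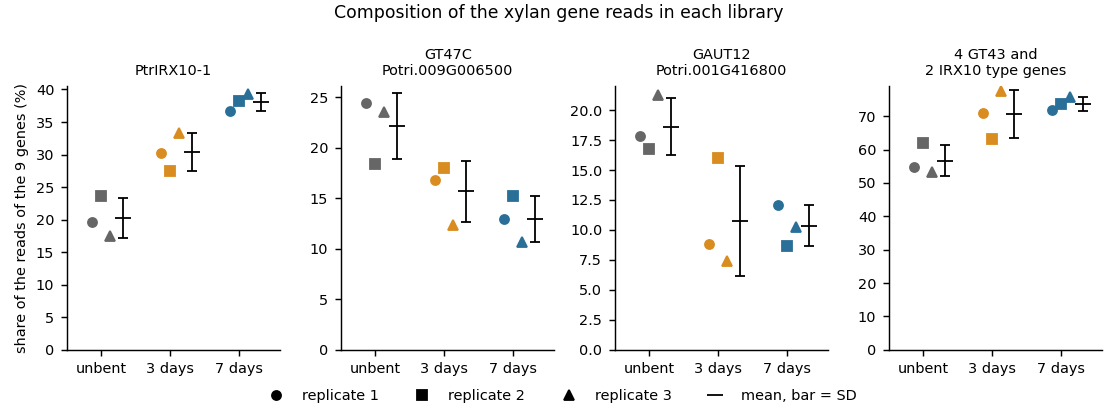
Share of the reads of the 9 xylan genes taken by PtrIRX10-1, by Potri.009G006500, by Potri.001G416800 and by the 6 GT43 and IRX10 type genes together (vertical axes in percent from 0, each with its own scale), for the 3 libraries of each group with the mean ± SD. The share of PtrIRX10-1 runs from 17.5 to 23.6% in unbent, 27.5 to 33.4% in 3-day and 36.6 to 39.4% in 7-day libraries without overlap.

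Within pairs of genes of one type, the balance of the 2 copies was compared directly. In the IRX10 pair, PtrIRX10-1 held 87.4, 89.0 and 89.8% of the reads in unbent, 91.1, 92.8 and 91.7% in 3-day and 93.3, 94.8 and 93.3% in 7-day libraries. The groups did not overlap in any comparison, and the mean share was higher by 3.13 percentage points at 3 days, by 5.08 at 7 days and by 1.95 between 7 and 3 days. At 3 days against unbent the log2 fold change was 0.08 for PtrIRX10-1 and -0.48 for Potri.003G162000. Each of the share comparisons gave a two-sided exact permutation p of 0.1, the lowest that 3 against 3 libraries allow, and 0.2 after Benjamini-Hochberg adjustment over the 12 pair comparisons made.

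In the GAUT12 pair, Potri.001G416800 held 85.6, 85.4 and 91.5% of the reads in unbent, 72.7, 85.0 and 73.2% in 3-day and 79.1, 77.4 and 76.0% in 7-day libraries. All bent libraries were below all unbent ones, though 3-day replicate 2 was so by a narrow margin. The mean share differed by -10.6 points at 3 days and -10.0 points at 7 days against unbent (exact permutation p = 0.1 and adjusted p = 0.2 for each), and by 0.55 points between 7 and 3 days (exact permutation p = 1.0).

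In the GT43 pairs the groups overlapped in 5 of 6 comparisons. Potri.006G131000 held 34.9 ± 2.30% of the reads of its pair with Potri.016G086400 in unbent, 36.6 ± 6.34% in 3-day and 37.5 ± 2.21% in 7-day libraries, with overlap throughout (exact permutation p of 0.3 to 0.9). Potri.007G047500 held 85.3, 84.8 and 84.5% of the reads of its pair with Potri.005G141500 in unbent, 83.8, 82.6 and 84.1% in 3-day and 83.8, 82.3 and 84.9% in 7-day libraries. At 3 days this was lower by 1.35 points without overlap (exact permutation p = 0.1, adjusted p = 0.2), and at 7 days the groups overlapped (p = 0.3). How reads that match both copies were counted is not given in the sources used here, so the copies' shares are uncertain where their sequences are nearly identical.

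**Figure D4:**
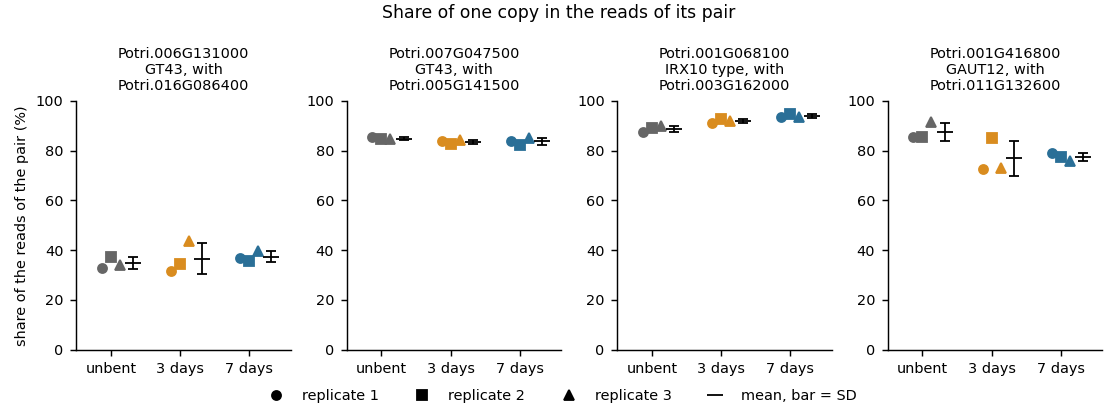
Share of the reads of a pair of genes of one type held by the copy named first in each panel (vertical axis 0 to 100%), for the 3 libraries of each group with the mean ± SD. PtrIRX10-1 (Potri.001G068100) lies at 87.4 to 89.8% in unbent and 93.3 to 94.8% in 7-day libraries, Potri.001G416800 lies at 85.4 to 91.5% in unbent and 72.7 to 85.0% in bent libraries, Potri.007G047500 lies at 82.3 to 85.3% in all libraries, and Potri.006G131000 at 31.7 to 43.8% with its groups overlapping.

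No list of the other xylan genes (side chain, acetylation and sugar supply) could be set up, since the identifiers matched no gene in the reference table at hand, and the wall polysaccharide genes named by the study are given in its place. Of the 5 secondary wall cellulose synthases, which make the cellulose that xylan coats, 0 were called at 3 days and 1 at 7 days by edgeR's quasi-likelihood test. It was PtrCesA18, which rose from 1989 to 5384 CPM on average (log2 fold change 1.44, SE 0.36, adjusted p = 0.0405). PtrCslA2, a glucomannan synthase gene and so part of another hemicellulose pathway, fell by 2.57 on the log2 scale at 7 days (SE 0.50, adjusted p = 0.0171 by the same test), from 254 to 42.9 CPM. The call of PtrCesA18 was lost in the edgeR fit without any one of unbent replicates 1 to 3, 3-day replicate 1 or 7-day replicates 1 and 3 (adjusted p up to 0.143) and with the replicate number as a block (0.0893), and that of PtrCslA2 was lost without unbent replicate 3 (0.0502) or 7-day replicate 3 (0.0558). DESeq2 and edgeR's exact test kept both calls, with adjusted p of 1.7e-05 and 3.5e-07 for PtrCesA18 and 1.8e-06 and 1.6e-05 for PtrCslA2. Both tests also called PtrCesA7 as higher at 7 days (0.0203 and 0.00337). The exact test called PtrCesA8 (0.0436), and DESeq2 did not (0.0715). They called 9.24% (DESeq2) and 7.77% (exact test) of all genes higher.

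Set against the summed reads of the 5 cellulose synthase genes in the same library, PtrCesA18 included, those of the xylan genes were fewer at 7 days. There were 50.9, 51.4 and 38.2 reads of the 9 members per 100 reads of the 5 cellulose synthase genes in unbent, 40.6, 37.4 and 43.3 in 3-day and 32.2, 31.3 and 35.6 in 7-day libraries. The 7-day libraries lay below all others, and the 3-day and unbent ones overlapped. The summed cellulose synthase level itself was 6249 to 7316 CPM in unbent, 3295 to 8524 CPM in 3-day and 8001 to 12794 CPM in 7-day libraries. PtrCesA18 alone rose from a mean of 1989 CPM in unbent to 5384 CPM at 7 days. PtrCesA7 and PtrCesA8 also had higher means at 7 days, and PtrCesA4 and PtrCesA17 had lower ones. The summed level of the members averaged 3120 CPM in unbent and 3611 CPM at 7 days. The ratio falls as PtrCesA18 rises, and it was not computed without that gene. It therefore does not show fewer xylan gene reads relative to the other cellulose synthase genes.

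The members differed in this ratio. PtrIRX10-1 had 9.96, 12.1 and 6.69 reads per 100 cellulose synthase reads in unbent, 12.3, 10.3 and 14.5 in 3-day and 11.8, 11.97 and 14.0 in 7-day libraries, with the groups overlapping. Potri.009G006500 had 12.4, 9.45 and 8.99 in unbent, 6.81, 6.74 and 5.33 in 3-day and 4.17, 4.76 and 3.79 in 7-day libraries, so that no 2 groups overlapped. Potri.001G416800 had 9.07, 8.61 and 8.13 in unbent, 3.57, 5.99 and 3.21 in 3-day and 3.89, 2.71 and 3.65 in 7-day libraries, with the unbent group above both bent groups. These ratios were added after the levels had been seen and carry no test. They share the denominator in which PtrCesA18 rose. The separations of groups are given only for the sum that includes that gene, and whether they hold without it was not tested.

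**Figure D5:**
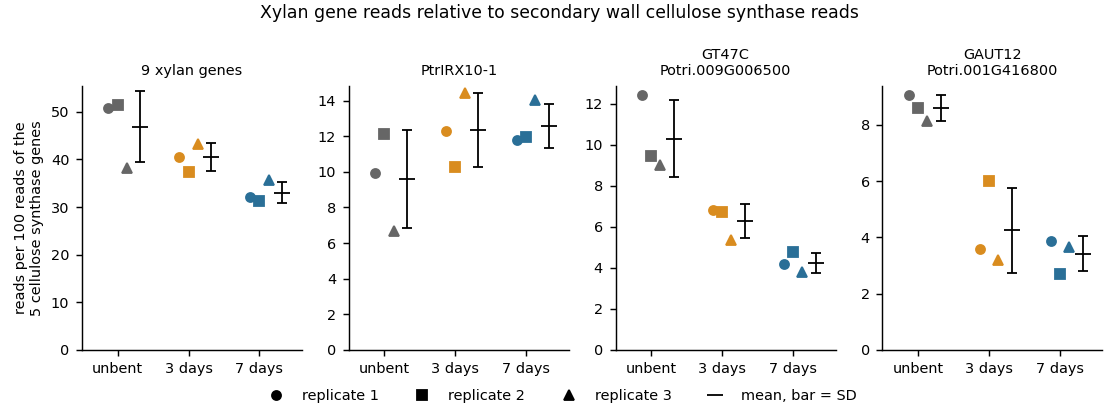
Reads of the 9 xylan genes together, of PtrIRX10-1, of Potri.009G006500 and of Potri.001G416800 per 100 reads of the 5 secondary wall cellulose synthase genes in the same library (vertical axes from 0, each with its own scale), with the mean ± SD of each group. Potri.009G006500 lies at 8.99 to 12.4 in unbent, 5.33 to 6.81 in 3-day and 3.79 to 4.76 in 7-day libraries, while PtrIRX10-1 overlaps between groups at 6.69 to 14.5. The 5 genes include PtrCesA18, whose mean level was higher at 7 days than in unbent.

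Across the 9 libraries the members followed one another to unequal degrees, given here as Pearson correlations of log2 CPM over 9 points that share groups and scaling factors. The GT47C gene and Potri.001G416800 were alike (r = 0.950), as were the GT43 gene Potri.007G047500 and the GAUT12 gene Potri.011G132600 (r = 0.972). PtrIRX10-1 and the GT47C gene were not (r = 0.190), nor were PtrIRX10-1 and Potri.001G416800 (r = 0.307). With the mean standardised profile of all 9 members, r was 0.966 for Potri.011G132600, 0.771 for PtrIRX10-1 and 0.726 for the GT47C gene. Each member is part of that mean, which raises its own r. The 5 cellulose synthase and 5 lignin genes, which are not part of it, had r from 0.600 (PtrCesA18) to 0.894 (PtrC4H1), so the profile is not particular to the xylan genes. Among genes that are not members, the closest to this mean profile were Potri.010G110000 (r = 0.977) and Potri.015G069200 (r = 0.972), which have no name in the sources used here. Potri.010G110000 ranged from 122 CPM in 3-day replicate 3 to 195 CPM in 7-day replicate 1, and Potri.015G069200 from 134 CPM to 320 CPM in the same libraries.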

How the data were processed

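Stem differentiating xylem RNA of integrity number over 9 was sequenced in 9 libraries. The authors deposited raw counts of reads for 41335 gene models of annotation version 3, with no normalization. TopHat is named in the submitters' processing notes without a version. How reads were counted, whether strand was used, and how reads with several matches were handled is not given in the sources used here, so close copies and overlapping or antisense genes are uncertain. Groups and replicate numbers came from the titles, and 0 columns were left unmatched. The labels do not tie replicates to separate trees, although the study calls its replicates biological, so the p-values cover the spread between these libraries, which may be partly technical.

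Genes were kept by filterByExpr (27795), scaled by TMM, and fitted to all 9 libraries with 3 groups by edgeR 4.0.16 (quasi-likelihood, two-sided) in R 4.3.3, after tests on simulated data. Calls required a Benjamini-Hochberg adjusted p under 0.05. SEs are the change divided by the root of F. Shares and sums were compared by exact permutation tests (SciPy 1.17.1). Total counts set the precision, as 1 count equals 0.0339 to 0.0479 CPM. Alternatives were RLE factors, library totals, no filter, a filter of 1 CPM in each library of any group, DESeq2 1.42.0, edgeR's exact test, a fit of the compared groups alone, a block for replicate number, and leaving out each library. What the replicate numbers stand for is not labelled. Correlations of the deviations of log2 CPM from the group means were 0.280, 0.244 and 0.174 for same-numbered 3-day and 7-day libraries. They were -0.272 to 0.029 for differently numbered ones. As deviations are centred within groups of 3 libraries, some matching of 2 groups has to correlate best. These values therefore cannot show that equal numbers share a tree or harvest. The main fit used no pairing, and blocks by number were alternatives only. The members, lists and tests were chosen with earlier results of these data known. All members are named. Other named genes are wall polysaccharide genes of the study and the 2 genes closest to the members' mean profile.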

Additional observations from a re-analysis of the deposited data

How the results depend on the processing

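The 9 members gave 27 log2 fold changes, each recomputed under 17 alternatives, and 20 kept their sign throughout. The count of members called at 7 days went from 0 to 1 (PtrIRX10-1) with DESeq2, with edgeR's exact test and without 3-day replicate 3 or 7-day replicate 2 (0 to 1 over the libraries left out), and at 7 against 3 days it went to 1 with DESeq2. Counts over all genes moved more. At 3 days they were 0 in the quasi-likelihood fit, 881 with DESeq2, 454 with the exact test and 0 to 30 with a library left out (30 without unbent replicate 2). At 7 days they were 2432, 4332 with DESeq2 and 343 to 2704 with a library left out, falling to 643 or 983 when unbent replicate 1 or 3 was left out and to 910 or 343 when 7-day replicate 1 or 3 was. At 7 against 3 days they were 0, 1731 with DESeq2, 868 with the exact test and 0 to 3 with a library left out. Unadjusted p under 0.05 was reached by 3265 genes at 3 days and 5617 at 7 against 3 days.

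Signs turned with library totals at 7 days for Potri.006G131000 (-0.057), Potri.016G086400 (-0.22), Potri.007G047500 (-0.040), Potri.003G162000 (-0.098) and the summed level of the members (-179 CPM against 491 CPM). With 1 library left out, log2 fold changes ran from -0.28 to 0.12 for Potri.005G141500 and from -0.17 to 0.29 for PtrIRX10-1 at 3 days, from -0.052 to 0.26 for Potri.016G086400 and from -0.036 to 0.48 for Potri.003G162000 at 7 days, and from -0.083 to 0.76 for Potri.009G006500 at 7 against 3 days. Differences in pair share ran from -1.87 to 4.16 points at 3 days and from -1.60 to 4.43 points at 7 against 3 days for Potri.006G131000, and at 7 against 3 days from -0.45 to 0.87 points for Potri.007G047500 and from -1.59 to 4.58 points for Potri.001G416800. The cause of these changes was not tested. The widest 95% interval, that of Potri.001G416800 at 3 days, ran from -2.28 to 0.08. This gene had 4158, 11474 and 2540 reads in the 3-day libraries, with a coefficient of variation of 79.4% in CPM. For it, the spread between libraries was thus larger than the counting error.

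With the replicate number as a block in all 9 libraries, 1847 genes were called at 7 days, 0 members were called in any comparison, and PtrIRX10-1 at 7 days had a log2 fold change of 1.15 with an adjusted p of 0.103 by edgeR. Deviations of same-numbered unbent and bent libraries correlated in both directions (r of 0.392, -0.184 and -0.035 with 3-day and 0.122, -0.341 and 0.021 with 7-day replicates 1 to 3). For same-numbered 3-day and 7-day libraries r was 0.174 to 0.280 over all tested genes. Among the members, replicate 2 was the highest 3-day library and the lowest 7-day library for 9 of 9. A shared origin of equal numbers thus cannot be read from these data. A block in the 3-day and 7-day libraries alone was added after seeing the data. It called 0 members and 0 of all genes at 7 against 3 days (5620 at an unadjusted p under 0.05), with a log2 fold change of 1.00 and an adjusted p of 0.249 for PtrIRX10-1, so the block changed no call of the quasi-likelihood test for the members.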
